A study of Rattus norvegicus with 8 samples.

Results

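The histone genes of the injured L5 dorsal root ganglion (DRG) were examined for their response to the histone deacetylase inhibitor (HDACI) MS-275. Members were all probe sets whose single gene symbol in the array annotation belonged to a histone H1, H2A, H2B, H3 or H4 gene, by the start of the symbol. This gave 39 probe sets of 32 genes, out of 28826 probe sets in all. Of these, 21 probe sets of 18 genes were replication-dependent histones, 10 probe sets of 6 genes were somatic variants, and 8 probe sets of 8 genes were variants known mainly from the germline. A further 3 H2B probe sets carried several symbols and were not members.

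RNA came from the injured, ipsilateral L5 DRG of adult male Wistar rats, taken on day 14 after the L5 spinal nerve was cut. In the HDACI group, MS-275 was infused into the intrathecal space by osmotic pump at 30 nmol per day. In the vehicle group, the pump held DMSO in saline. All 8 rats thus carried a catheter, a pump and the nerve transection. Each group had 4 biological replicates with 1 Affymetrix Rat Gene ST array each. Uninjured ganglia and ganglia without infusion are not analysed here. Values are log2 expression estimates after robust multi-array averaging (RMA), so a difference of 1 is a doubling.

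Histones are the proteins around which DNA is wound, and deacetylases remove acetyl groups from their tails. Replication-dependent histone genes sit in clusters, have no introns and are transcribed mainly while a cell copies its DNA, and their mRNAs end in a stem-loop in place of a poly(A) tail. Most somatic variant genes lie outside these clusters, give spliced and polyadenylated mRNAs, are transcribed in dividing and non-dividing cells, and supply H2A.Z and H3.3 to chromatin in cells such as neurons that no longer divide. H2A.Z is found at nucleosomes that flank transcription start sites. H3.3 is laid down at transcribed genes and at chromosome ends. The DRG holds sensory neurons, which do not divide, among satellite glia, Schwann cells, macrophages and vessels, which can.

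All 32 genes were found in RefSeq (assembly GRCr8) under the same symbol. The replication-dependent genes lay on chromosome 17 (11 genes), chromosome 2 (4 genes) and chromosome 10 (3 genes). A promoter sequence was on hand for 31 of the 32, the exception being H4c14. The 150 bases before the start were searched on both strands for CCAAT, the core of the NF-Y box, for TATAAA, the TATA box, and for ATTTGCAT, the octamer. CCAAT was found in 29 of 31 histone genes (93.5%), against 23.5% of 33469 promoters in the table. TATAAA was found in 11 (35.5%), against 8% of all promoters, and the octamer in 9 (29%), against 0.899%. The octamer stood in 6 of 12 replication-dependent H2A and H2B genes and in 0 of 5 replication-dependent H1, H3 and H4 genes. Each motif was counted separately, and matches in the sequences printed here did not overlap. A match is one of letters only.

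The promoters of the 2 H2A.Z genes and of 3 replication-dependent genes are shown because the results below set these kinds of gene side by side, with motif matches in capitals (ATTGG is CCAAT on the opposite strand).
H2az1, chr2:229028945-229029094, plus strand: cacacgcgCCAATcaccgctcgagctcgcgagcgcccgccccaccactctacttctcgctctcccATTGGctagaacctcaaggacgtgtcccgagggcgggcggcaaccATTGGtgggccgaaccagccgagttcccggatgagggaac
H2az2, chr14:85526069-85526218, minus strand: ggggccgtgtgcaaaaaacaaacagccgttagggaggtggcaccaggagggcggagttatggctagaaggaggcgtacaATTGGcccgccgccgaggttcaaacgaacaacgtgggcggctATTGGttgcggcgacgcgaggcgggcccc
Hist2h3c2, chr2:186526012-186526161, plus strand: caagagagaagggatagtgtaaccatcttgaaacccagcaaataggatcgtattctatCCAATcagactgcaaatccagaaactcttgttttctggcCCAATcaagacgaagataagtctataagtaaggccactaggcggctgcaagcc
H2bc18, chr2:186527047-186527196, plus strand: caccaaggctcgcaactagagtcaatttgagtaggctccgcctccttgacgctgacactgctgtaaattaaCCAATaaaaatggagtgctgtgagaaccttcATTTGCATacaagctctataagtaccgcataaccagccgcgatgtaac
H1f4, chr17:41914275-41914424, plus strand: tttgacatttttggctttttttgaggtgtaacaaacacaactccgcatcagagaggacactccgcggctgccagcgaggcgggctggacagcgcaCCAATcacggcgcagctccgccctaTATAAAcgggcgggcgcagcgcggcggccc
H2az1 held 3 CCAAT matches and H2az2 held 2, with neither a TATAAA nor an octamer match in either window. Hist2h3c2, an H3 gene, held 2 CCAAT matches. Its neighbour H2bc18, an H2B gene, held 1 CCAAT and 1 octamer match. H1f4, a linker histone gene, held 1 CCAAT and 1 TATAAA match.

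No histone probe set passed an adjusted p of 0.05 (limma, Benjamini-Hochberg over all 28826 probe sets), against 0% of all probe sets. The smallest adjusted p of any probe set was 0.580, and every histone probe set had 0.9998. At an unadjusted p under 0.01, 1 of 39 histone probe sets was counted, against 0.555% of all probe sets (160), and at an unadjusted p under 0.05 it was the same 1 of 39, against 3.55%. This was a probe set of H2az1, one of the genes for H2A.Z, and it was also the only histone probe set whose groups did not overlap, against 2.10% of all probe sets (1.01% higher and 1.09% lower in HDACI ganglia). Among the 10 probe sets of the table with an unadjusted p under 0.01 and at least a 1.5-fold difference (0.0347%), it was the only histone. The other 38 differed by -0.12 to 0.11 on the log2 scale.

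The mean was higher in HDACI ganglia for 30 of 39 histone probe sets (76.9%), against 53.3% of all probe sets. By class, this held for 16 of 21 replication-dependent, 9 of 10 somatic variant and 5 of 8 germline variant probe sets. The count rested on single arrays. It was 19 of 39 (48.7%) without HDACI replicate 4 and also 19 of 39 without vehicle replicate 3, with 6 of 21 replication-dependent probe sets higher in each case. The differences behind these counts were small. The median difference was 0.03 for all histones, 0.02 for replication-dependent histones, 0.06 for somatic variants and 0.01 for germline variants, beside 0.01 for all probe sets. The median of all histones was -0.002 without HDACI replicate 4 and -0.0097 without vehicle replicate 3. An absolute difference of at least 0.1 was found for 5 of 39 histone probe sets (12.8%), against 20.0% of all probe sets. In whole ganglia, fewer cells of a type and less RNA per cell cannot be told apart.

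**Figure D1:**
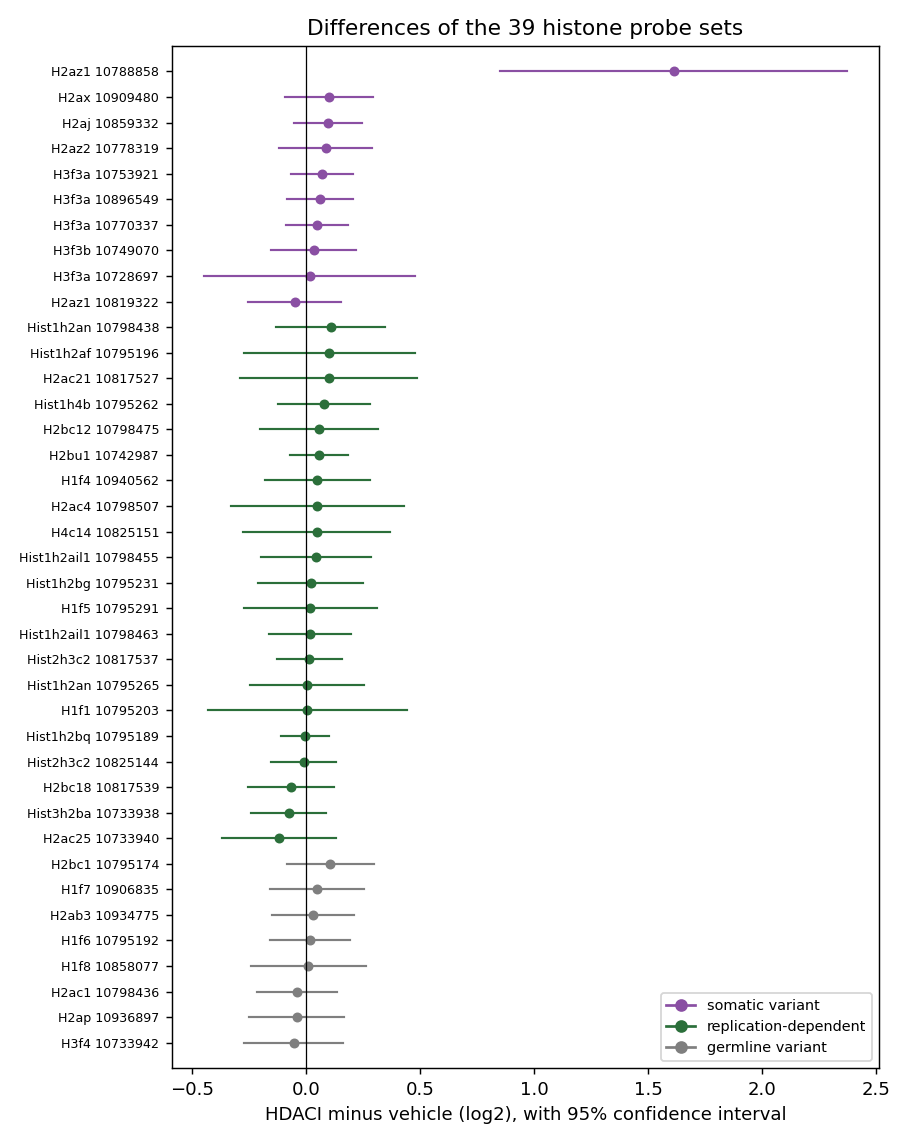
Difference of each of the 39 histone probe sets (HDACI minus vehicle, log2) with its 95% confidence interval from limma (4 arrays per group), coloured by class and ordered by size within class. H2az1 probe set 10788858 lies at 1.61 with an interval of 0.85 to 2.37, and the other 38 lie between -0.12 and 0.11 with intervals that include 0.

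The annotation assigns 2 probe sets to H2az1, and the difference between the groups was not the same in both. Where each probe set maps in the genome was not checked. Probe set 10788858 read 11.45, 10.70, 11.31 and 11.72 in HDACI replicates 1 to 4, against 9.77, 9.24, 9.10 and 10.62 in vehicle replicates 1 to 4. The lowest HDACI value, 10.70 in replicate 2, was close to the highest vehicle value, 10.62 in replicate 4, so that the groups were separated by a narrow gap. The difference was 1.61 with a standard error of 0.34 (95% confidence interval 0.85 to 2.37, limma unadjusted p = 0.001016, adjusted p = 0.9998). An exact permutation test over 70 relabellings gave a two-sided p of 0.02857, the smallest that 4 against 4 arrays allow. Histones had been picked as a group with this difference known, so it stands as a description. It had the highest positive difference of all 28826 probe sets but only rank 11 by p. Its spread was wide, with an SD of 0.43 in HDACI and 0.69 in vehicle ganglia, and its residual SD was 5.70 times the median of all probe sets.

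Probe set 10819322, which the annotation assigns to the same H2az1 reference transcript, did not show this pattern. It read 10.79, 10.77, 10.68 and 10.85 in HDACI replicates 1 to 4, against 11.06, 10.87, 10.75 and 10.62 in vehicle replicates 1 to 4. The groups overlapped, and the difference was -0.05 (95% confidence interval -0.25 to 0.15, limma unadjusted p = 0.586). Its sign was positive when vehicle replicate 1 was left out (0.027) and with a skeletal muscle score as a covariate (0.092). The interval of this probe set does not reach the lower bound of the other one.

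The gap between the 2 H2az1 probe sets was taken within each array, as 10788858 minus 10819322. It was 0.66, -0.08, 0.63 and 0.87 in HDACI replicates 1 to 4, against -1.28, -1.63, -1.65 and 0.00 in vehicle replicates 1 to 4. The HDACI replicate 2 and vehicle replicate 4 arrays had nearly the same gap, so that the groups overlapped there, while the other arrays of each group lay far apart. The mean gap was higher by 1.66 in HDACI ganglia (exact permutation test, two-sided p = 0.0571). It mostly restates the known difference of 10788858 (1.61), so this test gives no separate support. Over the 8 arrays the 2 probe sets had a Pearson r of -0.30 and a Spearman rho of -0.05. The array annotation gives NM_022674 for both, with M37584 as a further accession for 10788858 and BC086348 for 10819322. RefSeq lists 2 H2az1 pseudogenes, and which copies each probe set reads was not tested.

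**Figure D2:**
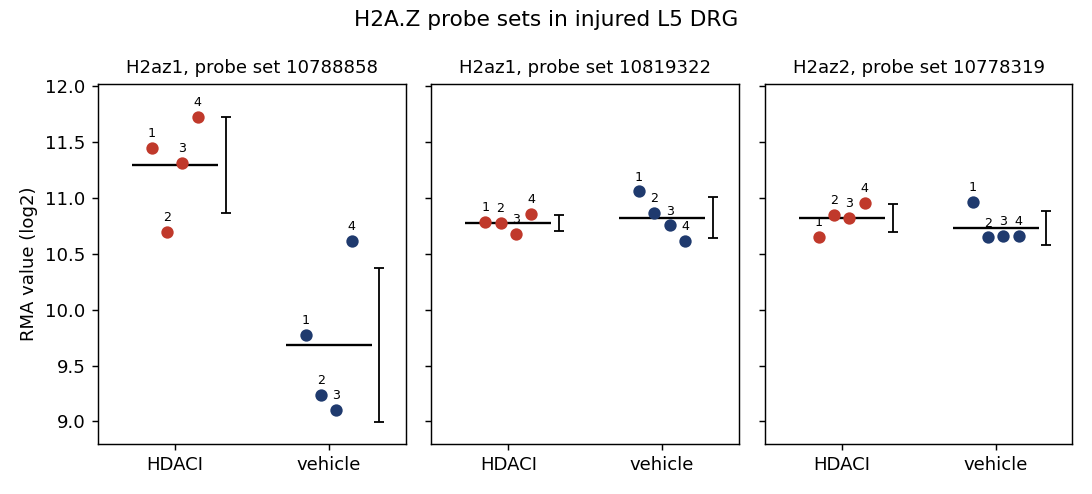
RMA values (log2) of the 3 H2A.Z probe sets, with 1 point per array numbered by replicate, HDACI on the left and vehicle on the right of each panel, a line at the mean and a bar of ± 1 SD (4 arrays per group). Probe set 10788858 of H2az1 lies at 10.70 to 11.72 in HDACI and 9.10 to 10.62 in vehicle ganglia, while the groups overlap for H2az1 probe set 10819322 and for H2az2.

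H2az2 encodes the second H2A.Z protein. It read 10.65, 10.85, 10.82 and 10.95 in HDACI replicates 1 to 4, against 10.96, 10.65, 10.66 and 10.66 in vehicle replicates 1 to 4. The vehicle replicate 1 array was the highest of all 8, and the groups overlapped. The difference was 0.09, and 0.16 without that array. No H2A.Z probe set other than 10788858 was thus separated between the groups.

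The probe sets with 1 symbol whose values over the 8 arrays were most like those of H2az1 10788858 were Gsdmd (Pearson r 0.945), which encodes the pore-forming gasdermin D, Oplah (0.928), an enzyme of glutathione turnover, Bri3 (0.926), Sytl1 (0.918) and Mdfi (0.911), an inhibitor of myogenic transcription factors. None of these 5 was a histone. In all, 18 probe sets had an r above 0.9, of which 10 carried a symbol. Their own differences were 0.08 for Gsdmd, 0.11 for Oplah, 0.11 for Bri3, 0.09 for Sytl1 and 0.16 for Mdfi, far smaller than the 1.61 of H2az1 10788858. These correlations were ranked over 8 arrays and all probe sets, and are a description.

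Of the other somatic variants, H2aj, an H2A variant, came nearest to a difference. It read 9.86, 9.93, 9.95 and 9.82 in HDACI replicates 1 to 4, against 9.71, 9.73, 9.77 and 9.97 in vehicle replicates 1 to 4. The first 3 vehicle arrays lay below every HDACI array and the vehicle replicate 4 array above them all. The difference was 0.09 (limma unadjusted p = 0.189).

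H2ax encodes H2A.X, the variant that is phosphorylated beside DNA breaks. It read 8.87, 9.06, 9.04 and 8.95 in HDACI replicates 1 to 4, against 8.82, 8.996, 8.68 and 9.03 in vehicle replicates 1 to 4. The difference was 0.10 (limma unadjusted p = 0.274), and the groups overlapped.

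H3.3 is encoded by H3f3a, to which the annotation assigns 4 probe sets, and by H3f3b, with 1. Where these probe sets map in the genome was not checked. The brightest, H3f3a 10753921, read 12.67, 12.75, 12.65 and 12.79 in HDACI replicates 1 to 4, against 12.77, 12.63, 12.55 and 12.64 in vehicle replicates 1 to 4. The values overlapped and the difference was 0.07 (limma unadjusted p = 0.288). The other H3f3a probe sets differed by 0.06 (10896549), 0.05 (10770337) and 0.01 (10728697), and H3f3b by 0.03. All 5 H3.3 probe sets had a slightly higher mean in HDACI ganglia, against 53.3% of all probe sets, and none passed the test. Without HDACI replicate 4, H3f3a 10728697 differed by -0.20 and H3f3b by -0.006, while the other H3f3a probe sets kept a higher mean. The dim H3f3a probe set 10728697 stood apart in spread, with 7.13, 7.62, 7.15 and 8.14 in HDACI replicates 1 to 4, against 7.63, 7.39, 7.46 and 7.50 in vehicle replicates 1 to 4. It lay at the 97.5th percentile of residual SD among all probe sets.

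Some variant genes lie outside the symbol rule. Macroh2a1 and Macroh2a2, which encode macroH2A, an H2A with a large globular domain, differed by 0.06 and 0.16, Macroh2a2 with a limma unadjusted p of 0.0496 and an adjusted p of 0.9998. The value of Macroh2a2 was above those of the 38 histone probe sets other than H2az1 10788858. Cenpa, the centromeric H3, differed by 0.04. The linker variant H1.0 is not analysed here.

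The replication-dependent histones differed little between the groups but varied together from array to array. In no family did a probe set pass the test. The largest positive difference was 0.11, for the H2A gene Hist1h2an (10798438), whose other probe set (10795265) differed by 0.00, and the largest negative one was -0.12, for the H2A gene H2ac25. H2ac25 read 8.56, 8.18, 7.99 and 8.31 in HDACI replicates 1 to 4, against 8.28, 8.35, 8.47 and 8.41 in vehicle replicates 1 to 4. Its highest and lowest values were both HDACI arrays (limma unadjusted p = 0.308).

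Among linker histones, the brightest replication-dependent probe set was that of H1f4. It read 11.85, 11.72, 11.56 and 12 in HDACI replicates 1 to 4, against 11.91, 11.76, 11.68 and 11.59 in vehicle replicates 1 to 4, a difference of 0.05. The H1 genes H1f5 and H1f1 differed by 0.02 and 0.00.

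Among H2A genes, Hist1h2ail1 (10798455) read 12.13, 12.09, 11.95 and 12.25 in HDACI replicates 1 to 4, against 12.34, 12.11, 11.86 and 11.94 in vehicle replicates 1 to 4. Its difference was 0.04, with the highest and the lowest value both in vehicle ganglia. The H2A genes Hist1h2af and H2ac21 differed by 0.10 each.

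Among H2B genes, Hist1h2bq read 13.02, 12.98, 12.97 and 13.05 in HDACI replicates 1 to 4, against 13.00, 13.05, 12.93 and 13.05 in vehicle replicates 1 to 4. All 8 values lay close together, with a difference of -0.01. Among single-symbol replication-dependent H2B probe sets, the extreme differences were 0.06 for H2bc12 and -0.08 for Hist3h2ba. The 3 H2B probe sets with several symbols differed by 0.08, -0.03 and 0.02.

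The H3 gene Hist2h3c2 had 2 probe sets whose differences were of opposite sign and near 0. Probe set 10817537 read 13.16, 13.08, 13.06 and 13.20 in HDACI replicates 1 to 4, against 13.18, 13.17, 12.95 and 13.15 in vehicle replicates 1 to 4, a difference of 0.01. Probe set 10825144 read 12.62, 12.51, 12.48 and 12.54 in HDACI replicates 1 to 4, against 12.63, 12.61, 12.40 and 12.56 in vehicle replicates 1 to 4, a difference of -0.01. Both were lowest in vehicle replicate 3.

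Of the H4 genes, H4c14 had the brightest probe set. It read 11.52, 11.51, 11.35 and 11.78 in HDACI replicates 1 to 4, against 11.86, 11.57, 11.28 and 11.26 in vehicle replicates 1 to 4. Both the highest and the lowest values were vehicle arrays, and the difference was 0.05. Hist1h4b differed by 0.08.

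Across the 210 pairs of replication-dependent probe sets, the median Pearson r over the 8 arrays was 0.61, and 0.65 once each group's mean was removed. The pairs ranged in r between -0.41 and 0.99, and 92.9% were positive. The median r was 0.47 over 45 pairs of somatic variant probe sets and 0.41 over 28 pairs of germline variant probe sets. HDACI replicate 4 or vehicle replicate 1 was the highest array for 18 of 21 replication-dependent probe sets (85.7%), against 29.0% of all probe sets. HDACI replicate 3 or vehicle replicate 3 was the lowest for 19 of 21 (90.5%), against 21.1% of all probe sets. The order therefore cut across the treatment groups. Of the somatic variant probe sets, 8 of 10 were highest and 5 of 10 lowest in the same pairs of arrays. For germline variants the counts were 1 of 8 and 2 of 8. The high arrays were thus not particular to the replication-dependent class. Both pairs are the arrays most often highest or lowest in the replication-dependent probe sets themselves. The comparison with other probe sets therefore favours that class. Histone genes of a family are near-identical in sequence, so probe sets of different genes may read the same transcripts, and the share of the correlation that this gives was not tested.

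**Figure D3:**
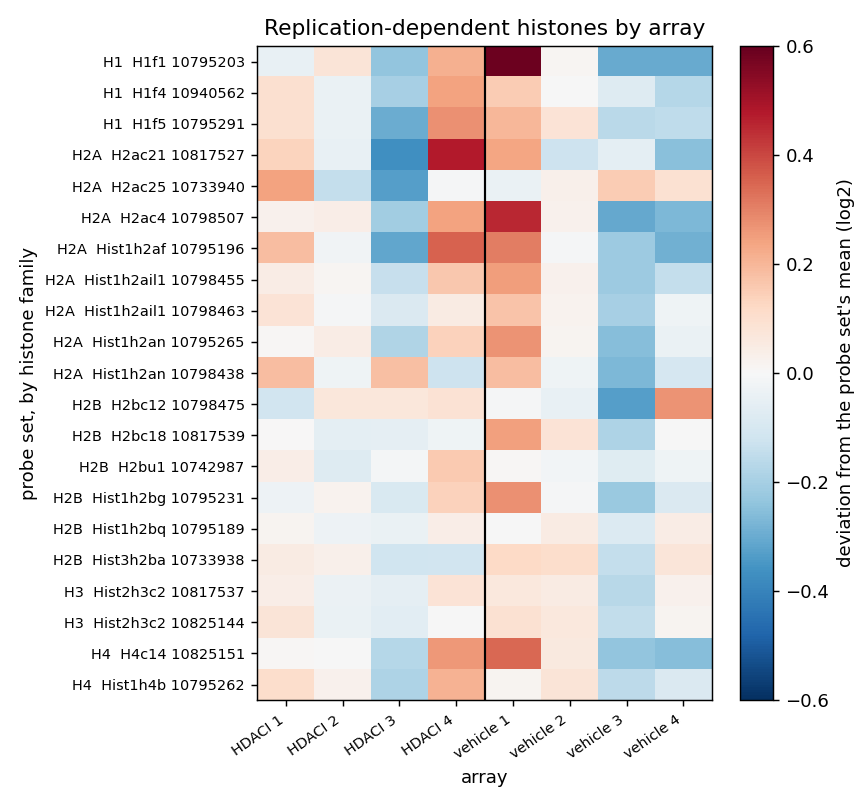
Deviation of each replication-dependent histone probe set from its mean over the 8 arrays (log2, colour scale), with probe sets in rows by family and arrays in columns, HDACI to the left of the line and vehicle to the right. Most rows are high in HDACI replicate 4 and vehicle replicate 1 and low in HDACI replicate 3 and vehicle replicate 3.

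The same order of arrays was found in genes of S phase and mitosis, a list of 20 genes of which 17 were measured. The median deviation of the replication-dependent probe sets was 0.05, -0.02, -0.14 and 0.14 in HDACI replicates 1 to 4, against 0.18, 0.02, -0.19 and -0.09 in vehicle replicates 1 to 4. The mean deviation of the S phase and mitosis genes was 0.03, 0.02, -0.17 and 0.14 in HDACI replicates 1 to 4, against 0.27, -0.01, -0.19 and -0.09 in vehicle replicates 1 to 4. The 2 series ran nearly side by side, with a Pearson r of 0.978 and a Spearman rho of 0.976 over the 8 arrays. The Pearson r was 0.979 within groups and 0.972 without vehicle replicates 1 and 3, which lay farthest out. It is a description of 8 arrays that share 1 normalization.

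Taken one at a time, the replication-dependent probe sets had a median r of 0.79 with the S phase and mitosis genes, lowest for H2ac25 (0.06) and highest for Hist1h2ail1 10798455 (0.98), and 10 of 21 were above 0.8. Somatic variants had a median r of 0.74, and 5 of 10 were above 0.8, a share like that of the replication-dependent probe sets. The share among all probe sets was not computed. H2az1 10819322 stood at 0.84, H2az1 10788858 at 0.12, H2aj at -0.46 and the 4 H3f3a probe sets at 0.53 to 0.93. The 2 H2az1 probe sets therefore also differed in how they followed the proliferation genes. Germline variants had a median r of -0.40 and went both ways, lowest for H1f7 (-0.78) and highest for H2bc1 (0.75) and H2ac1 (0.61), and 0 of 8 were above 0.8. The H3.3 probe sets had median deviations of -0.01, 0.04, -0.05 and 0.12 in HDACI replicates 1 to 4, against 0.13, -0.06, -0.12 and -0.04 in vehicle replicates 1 to 4. Like the replication-dependent medians, these were highest in vehicle replicate 1 and HDACI replicate 4 and lowest in vehicle replicate 3. Their sign was opposite to those medians in HDACI replicates 1 and 2 and in vehicle replicate 2.

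**Figure D4:**
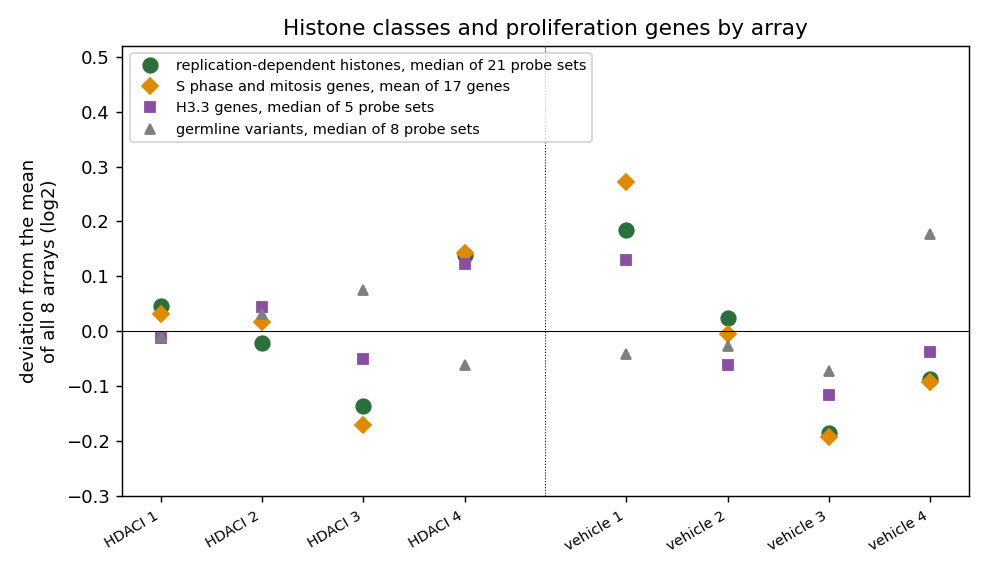
Deviation from the mean of all 8 arrays (log2) for each array, HDACI on the left and vehicle on the right, as the median of the replication-dependent histones, of the H3.3 genes and of the germline variants and as the mean of 17 S phase and mitosis genes. Replication-dependent histones and S phase genes reach 0.18 and 0.27 in vehicle replicate 1 and -0.19 each in vehicle replicate 3, whereas the germline variants are highest in vehicle replicate 4.

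Genes that act on histones or histone mRNA varied over the arrays in a like way and did not pass the test. Of 24 histone chaperone and exchange genes, 18 were measured, 12 with a higher and 6 with a lower mean in HDACI ganglia, with a median difference of 0.03 and 0 at an unadjusted p under 0.01. Their mean deviation had an r of 0.924 with the median deviation of the replication-dependent histones. Ubn1, of the complex that deposits H3.3, differed by 0.06 (limma unadjusted p = 0.181). Its HDACI values all lay above its vehicle values, as for 1.01% of all probe sets. Rbbp4, a histone-binding subunit shared by chromatin assembly and deacetylase complexes, differed by 0.07. Of 14 genes for histone mRNA transcription and processing, 9 were measured, 7 higher and 2 lower, with a median difference of 0.05, none at an unadjusted p under 0.01 and an r of 0.822. Npat, the coactivator of replication-dependent histone genes, differed by 0.09 and Eri1, an exonuclease of histone mRNA, by 0.05. Of the S phase and mitosis genes, 11 were higher and 6 lower, with a median difference of 0.01 and none at an unadjusted p under 0.01. Mcm7, of the replicative helicase, differed by -0.07 and the mitotic kinase Aurka by -0.06.

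Germline variants read between 6.53 and 8.11 on average over the 8 arrays. H2bc1, a testis H2B, had the smallest p of them, with 7.87, 7.90, 7.96 and 8.01 in HDACI replicates 1 to 4, against 8.05, 7.86, 7.64 and 7.77 in vehicle replicates 1 to 4. The groups overlapped and the difference was 0.11 (limma unadjusted p = 0.243). With the muscle score as a covariate it was 0.30 (limma unadjusted p = 0.00522), but that score was itself lower in HDACI than in most vehicle arrays. The testis linker histone H1f6 read 7.48, 7.43, 7.34 and 7.31 in HDACI replicates 1 to 4, against 7.19, 7.37, 7.39 and 7.55 in vehicle replicates 1 to 4, a difference of 0.02. The lowest difference in the class was -0.05, for the testis H3 gene H3f4. The median deviation of the class was -0.01, 0.03, 0.07 and -0.06 in HDACI replicates 1 to 4, against -0.04, -0.03, -0.07 and 0.18 in vehicle replicates 1 to 4, unlike that of the replication-dependent genes. Whether these low values lie above the array background was not tested.

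Markers of other cells were set beside these values. Sensory neuron markers were measured for 11 of 12 genes, 2 with a higher and 9 with a lower mean in HDACI ganglia, with Isl1 at -0.14 and the neuronal tubulin Tubb3 at -0.10. The mean deviation of the list was -0.05 in HDACI and 0.05 in vehicle ganglia, and -0.05 in both without vehicle replicate 4, which stood at 0.35. That array also had the highest satellite glia value (0.21), the highest germline variant value and the highest H2az1 10788858 value among vehicle arrays. Tubb3 averaged 13.31 ± 0.08 in HDACI and 13.41 ± 0.10 in vehicle ganglia (SD, 4 arrays each). Satellite glia (4 of 6 measured, 1 higher and 3 lower, Fabp7 -0.14 and Slc1a3 -0.07) and Schwann cell markers (5 of 6, 2 higher and 3 lower, Egr2 -0.10 and Mag 0.02) had no member at an unadjusted p under 0.01. Macrophage markers (7 of 7) were all higher on average, with Cd14 at 0.31 and Csf1r at 0.09, and their mean deviation reached 0.53 in HDACI replicate 4, an array that was also high in replication-dependent histones. Without it, their mean deviation was -0.094 in HDACI and -0.062 in vehicle ganglia, so the higher mean rested on that array. Over all arrays their r with these histones was 0.475, and -0.69 without HDACI replicate 4 and vehicle replicate 1. For the other lists r was -0.566 for neurons (-0.463 without the 2 arrays farthest out on that list), -0.364 for satellite glia (-0.061), -0.257 for Schwann cells (0.021), 0.01 for lymphocytes (0.075) and 0.08 for erythroid cells (0.163). Among lymphocyte genes, Cd4 differed by 0.19 and Cd3e by -0.09, and among erythroid genes, Hemgn by 0.16 and Alas2 by 0.37. Their part in the histone values was not tested.

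Skeletal muscle genes were low in all HDACI arrays and in vehicle replicate 3, and high in the other vehicle arrays. Of 18 such genes, 15 were measured and all 15 had a lower mean in HDACI ganglia, with a median difference of -1.90 and 0 at an unadjusted p under 0.01. Myl1 differed by -2.80 and Myh4 by -2.70. The mean deviation of the list was -0.88, -0.81, -0.83 and -1.25 in HDACI replicates 1 to 4, against 2.60, 1.56, -1.11 and 0.72 in vehicle replicates 1 to 4. Vehicle replicate 3, which was low in muscle genes, had the lowest H2az1 10788858 value of all arrays (9.10). This is a single array, and a relation of this probe set to muscle content was not tested. With the list's score as a covariate, the difference of H2az1 10788858 was 1.78. The median difference of the replication-dependent histones was then 0.18, against 0.02 without the covariate. The score largely followed the treatment, so this fit cannot separate muscle from treatment, and its values are a description. The r of muscle and replication-dependent histone levels was 0.443 over the 8 arrays, 0.710 within groups and -0.25 without vehicle replicates 1 and 2.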

How the data were processed

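The 8 arrays (4 HDACI, 4 vehicle) were processed by the authors with RMA in the Bioconductor package oligo, and the deposited values are log2 expression per probe set. Their versions are not given in the sources used here. This step equalizes the arrays, so it hides a shift common to all transcripts, and it compresses differences of dim probe sets. Array medians lay at 8.13 to 8.16 and correlations between arrays at 0.991 to 0.997, and at most 0.0486% of values were equal between 2 arrays. Arrays have no read depth, so precision is set by their number.

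Symbols came from the platform annotation: 15209 probe sets carried 1, 306 several and 13311 none. Promoters came from RefSeq (GRCr8). Differences were fitted as HDACI minus vehicle with limma 3.58.1 in R 4.3.3 (lmFit, eBayes) over all 28826 probe sets, two-sided, with Benjamini-Hochberg adjustment. Single values were also tested by exact permutation over 70 relabellings. The fit was tested on simulated data. Groups and replicate numbers came from the sample labels.

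Values per array were given for all H2az1 probe sets, members at an unadjusted p under 0.01, the 6 with the smallest p, probe sets of 1 gene with opposite signs or differences over 0.2 apart, and the brightest probe set of each family, once for replication-dependent and once for variant genes. Differences alone were given for the extremes of each class, the named variants and the 2 genes of smallest p in each of 10 other lists, and for H2az1 10788858 the 5 most similar genes. H3f3a 10728697 and the further genes named were chosen after their values were seen. The members and the lists were chosen with earlier results of these data known. Classes follow gene function as commonly described. Alternatives were the replicate block, filters on dim (under the 30th percentile) or unnamed probe sets, 3 renormalizations, 3 variance settings, a muscle covariate, the linear scale and leaving out each array.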

Additional observations from a re-analysis of the deposited data

Results flagged for a closer look

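Within each group of 4 arrays, a single array far from the other 3 was looked for in every histone probe set by Dixon's 95% criterion. Of 78 groups, 3 passed, where chance gives 5% or 3.9. H2bc12 read 8.66 in HDACI replicate 1, with the nearest HDACI array at 8.85, and its difference was 0.10 without that array. Hist2h3c2 10817537 read 12.95 in vehicle replicate 3, with the nearest vehicle array at 13.15, and its difference was -0.04 without it. H2az2 read 10.96 in vehicle replicate 1, with the nearest vehicle array at 10.66, and its difference was 0.16 without it.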

How the results depend on the processing

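No probe set passed the adjusted threshold in any setting that was run. H2az1 10788858 kept its direction in all of them, with a difference of 1.42 to 1.92 when 1 array was left out, 1.78 with the muscle covariate, 1.53 on the linear scale and unadjusted p-values of 6.5e-05 to 0.00668 over the limma settings (lowest adjusted p 0.623, without vehicle replicate 4). With the muscle covariate, 2 histone probe sets in place of 1 had an unadjusted p under 0.01 (the other was H2bc1), and the median difference was 0.16 for all histones and 0.18 for replication-dependent histones. H2az1 10819322 reversed to 0.092 with that covariate and to 0.027 without vehicle replicate 1 (range -0.12 to 0.027 over arrays left out). Leaving out 1 array gave medians of -0.01 to 0.08 for all histones, -0.04 to 0.09 for replication-dependent histones and 0.02 to 0.06 for variants. Of the 39 members, 26 changed sign in at least 1 setting and 13 did not. Of 664 values of the 37 members other than the H2az1 probe sets, 647 stayed within 1 residual SD and 17 moved further, all of these with the muscle covariate. The causes were not tested, and the muscle score largely followed the treatment, so that fit cannot separate muscle from treatment. Correlations of the deviations of same-numbered arrays were -0.04, 0.01, 0.01 and -0.28, so no pairing by replicate number was seen in them. With the replicate block the difference of H2az1 10788858 stayed at 1.61. Its limma unadjusted p was then 8.27e-05 (adjusted p 0.898), against 0.001016 without the block. In that fit, 1 histone probe set had an unadjusted p under 0.01 and 0 passed the adjusted threshold.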
